A study of Homo sapiens with 66 samples.

Results

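The genes described here make or guard the supply of deoxynucleotides. They are RRM1, RRM2, RRM2B, TYMS, TK1, DCK, DUT and DCTPP1, 8 of the 57992 gene identifiers analysed, chosen by symbol for their known role. Earlier results of these data were known when they were chosen. Their mRNA was counted in 11 acute myeloid leukemia (AML) cell lines, F36P, HL60, KASUMI1, MOLM13, MONOMAC6, MV411, NB4, NOMO1, OCIAML2, OCIAML3 and THP1, either untreated (media) or exposed for 24 h to etoposide, a poison of topoisomerase II that leaves DNA double strand breaks. Each line received etoposide at its own IC50, so drug doses differed between lines while the intended toxicity did not. There were 3 libraries per line and treatment, 66 in all, each from RNA of 3 pooled wells. The study describes its experiments in general as 3 biological replicates, and its sequencing methods give no replicate number. Nothing in the labels says that the 3 libraries of a group came from separate cultures. The p-values therefore measure the spread between these libraries, which may be technical.

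Libraries held between 17997404 and 24101670 reads assigned to genes, with a median of 20241014. The study discarded etoposide-treated OCIAML2 because its raw reads failed quality control, and the values of this line after etoposide stand apart from the other 10 lines below. All lines expressed the pan-leukocyte genes PTPRC and SPN and the myeloid genes CD33 and SPI1, each at 32.5 CPM (reads scaled to library size) or more. F36P differed from the others: MPO stood at 0.977 CPM and CEBPA at 0.552 CPM, the lowest of all lines. The other myeloid markers, LYZ and CSF1R, were lowest in HL60 instead, at 2.65 and 0.132 CPM. In F36P the 6 erythroid markers summed to 6490 CPM against a median of 15.7 CPM over lines, HBG2 alone reaching 5417 CPM. The 7 markers of T, B, epithelial, stromal and endothelial cells summed to between 0.412 CPM in OCIAML2 and 82.4 CPM in KASUMI1, where EPCAM alone stood at 81.9 CPM.

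In GRCh38 coordinates, the plus strand carries RRM1 (ENSG00000167325.14) at chromosome 11, 4094707 to 4138932, RRM2 (ENSG00000171848.13) at chromosome 2, 10120698 to 10211725, TYMS (ENSG00000176890.15) at chromosome 18, 657653 to 673578, DCK (ENSG00000156136.9) at chromosome 4, 70992538 to 71030914, and DUT (ENSG00000128951.13) at chromosome 15, 48331011 to 48343373. The minus strand carries TK1 (ENSG00000167900.11) at chromosome 17, 78174091 to 78187233, DCTPP1 (ENSG00000179958.8) at chromosome 16, 30423615 to 30430030, and RRM2B (ENSG00000048392.11) at chromosome 8, 102204502 to 102238961. Values are reads over all exons of a gene, coding parts and UTRs together, and do not tell transcripts apart. RRM2, DUT and TYMS have processed pseudogenes, whose own counts reached at most 2.23 CPM (RRM2P3), and reads that fitted a gene and its copy equally well were counted for neither. On the opposite strand DUT shares 533 exon bases with DUT-AS1 and DCTPP1 shares 645 with ZNF771, which stayed at or below 6.94 and 5.61 CPM.

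Deoxynucleotides reach the replication fork by 2 routes. Ribonucleotide reductase makes them from ribonucleotides. It pairs the large subunit RRM1, which holds the catalytic site, with a small subunit that carries the tyrosyl radical: RRM2, which cells make in S phase and destroy in mitosis, or RRM2B (also called p53R2), a p53-induced subunit that serves DNA repair and mitochondrial DNA in cells outside S phase. TYMS methylates dUMP to dTMP and is the target of fluorouracil. In the salvage route, TK1 phosphorylates thymidine in S phase and DCK phosphorylates deoxycytidine, and with it the AML drugs cytarabine and cladribine. DUT hydrolyses dUTP and so keeps uracil out of DNA, and DCTPP1 hydrolyses dCTP and modified cytosine deoxynucleotides.

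RRM2 and TK1 are shown by the 150 bases before their transcription start, as the members with more than 1 CCAAT box, the binding motif of NF-Y, before their main start. The sequences are RefSeq's for GRCh38.p14, on the gene's strand at chr2:10122589-10122738 (plus) and chr17:78187053-78187202 (minus). Capitals mark each CCAAT on either strand, ATTGG being its reverse complement.
RRM2: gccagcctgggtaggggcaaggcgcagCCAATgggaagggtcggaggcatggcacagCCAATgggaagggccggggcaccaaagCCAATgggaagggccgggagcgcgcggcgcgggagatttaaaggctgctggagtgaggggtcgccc
TK1: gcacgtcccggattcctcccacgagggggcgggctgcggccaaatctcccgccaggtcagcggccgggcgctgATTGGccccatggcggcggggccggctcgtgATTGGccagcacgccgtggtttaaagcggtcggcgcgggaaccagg
RRM2 held 3 copies on its own strand, and TK1 held 2 copies on the opposite strand. Of 35116 RefSeq promoter windows (250 bases before to 50 after a start), 34.6% held CCAAT on either strand. Windows were given for 7 of the 8 genes. Among these, RRM1 held 1 CCAAT in its window, and TYMS, DCK, DUT and DCTPP1 held none in any of their windows. An E2F motif (TTTCCCGC, TTTGGCGC or TTTCGCGC, either strand, held by 2.74% of all windows) occurred once in TYMS, once in DCK and at 2 places in the most downstream of the 4 DUT windows. A CHR motif (TTTGAA or TTCGAA, 16.4% of windows) occurred in RRM1 and in that same DUT window, and GGGCGG (45.0% of windows) in 6 of the 7 genes, TYMS being the one without. These matches describe letters in the windows and are no sites of binding.

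In untreated cells, RRM2B was the member that varied most between lines. Its mean was 196 CPM ± 4.30 (SD, n = 3) in MOLM13, 150 CPM ± 10.7 in MV411 and 126 CPM ± 2.86 in OCIAML2, and 13.6 CPM ± 1.28 in KASUMI1, a 14.3-fold range. The levels of the other 7 lines filled the space between, from 62.5 CPM ± 8.94 in OCIAML3 to 22 CPM ± 1.29 in HL60. MOLM13 and OCIAML3 were separated from their next lower or higher line (adjusted p = 0.0294 for MOLM13 over MV411, 5.3e-07 for OCIAML2 over OCIAML3), whereas OCIAML3, THP1, MONOMAC6 and NOMO1 followed each other without a neighbouring difference beyond their spread. TK1 ranged 5.12-fold, from 230 CPM ± 10.9 in OCIAML3 down to 74.8 CPM ± 2.03 in OCIAML2 and 45.0 CPM ± 5.34 in NB4. NB4 was also lowest in DCK, the kinase that activates cytarabine, with 29.6 CPM ± 4.56 against 53.3 CPM ± 1.77 in MOLM13, its nearest neighbour (adjusted p = 1.44e-09), and 103 CPM ± 3.17 in OCIAML2, the highest.

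The remaining members spanned narrower ranges. RRM2 lay between 391 CPM ± 15.1 in MV411 and 138 CPM ± 3.63 in THP1 (2.83-fold), with HL60 at 369 CPM ± 26.3 and MOLM13 at 337 CPM ± 10.3 close behind MV411 and not separated from their neighbour above (adjusted p = 0.279 and 0.0859). RRM1 lay between 354 CPM ± 8.46 in MV411 and 163 CPM ± 17.2 in KASUMI1 (2.17-fold), and MV411 over THP1 was its only neighbouring pair of 10 that differed (adjusted p = 0.0123). TYMS was highest in HL60 at 533 CPM ± 42.9 and lowest in NOMO1 at 266 CPM ± 15.1. DUT was highest in OCIAML2 at 238 CPM ± 9.72 and lowest in MONOMAC6 at 105 CPM ± 3.36. DCTPP1 was highest in NOMO1 at 125 CPM ± 8.04, and KASUMI1, at 39.8 CPM ± 4.67, was the single line set apart from its neighbour (adjusted p = 1.04e-05).

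**Figure D1:**
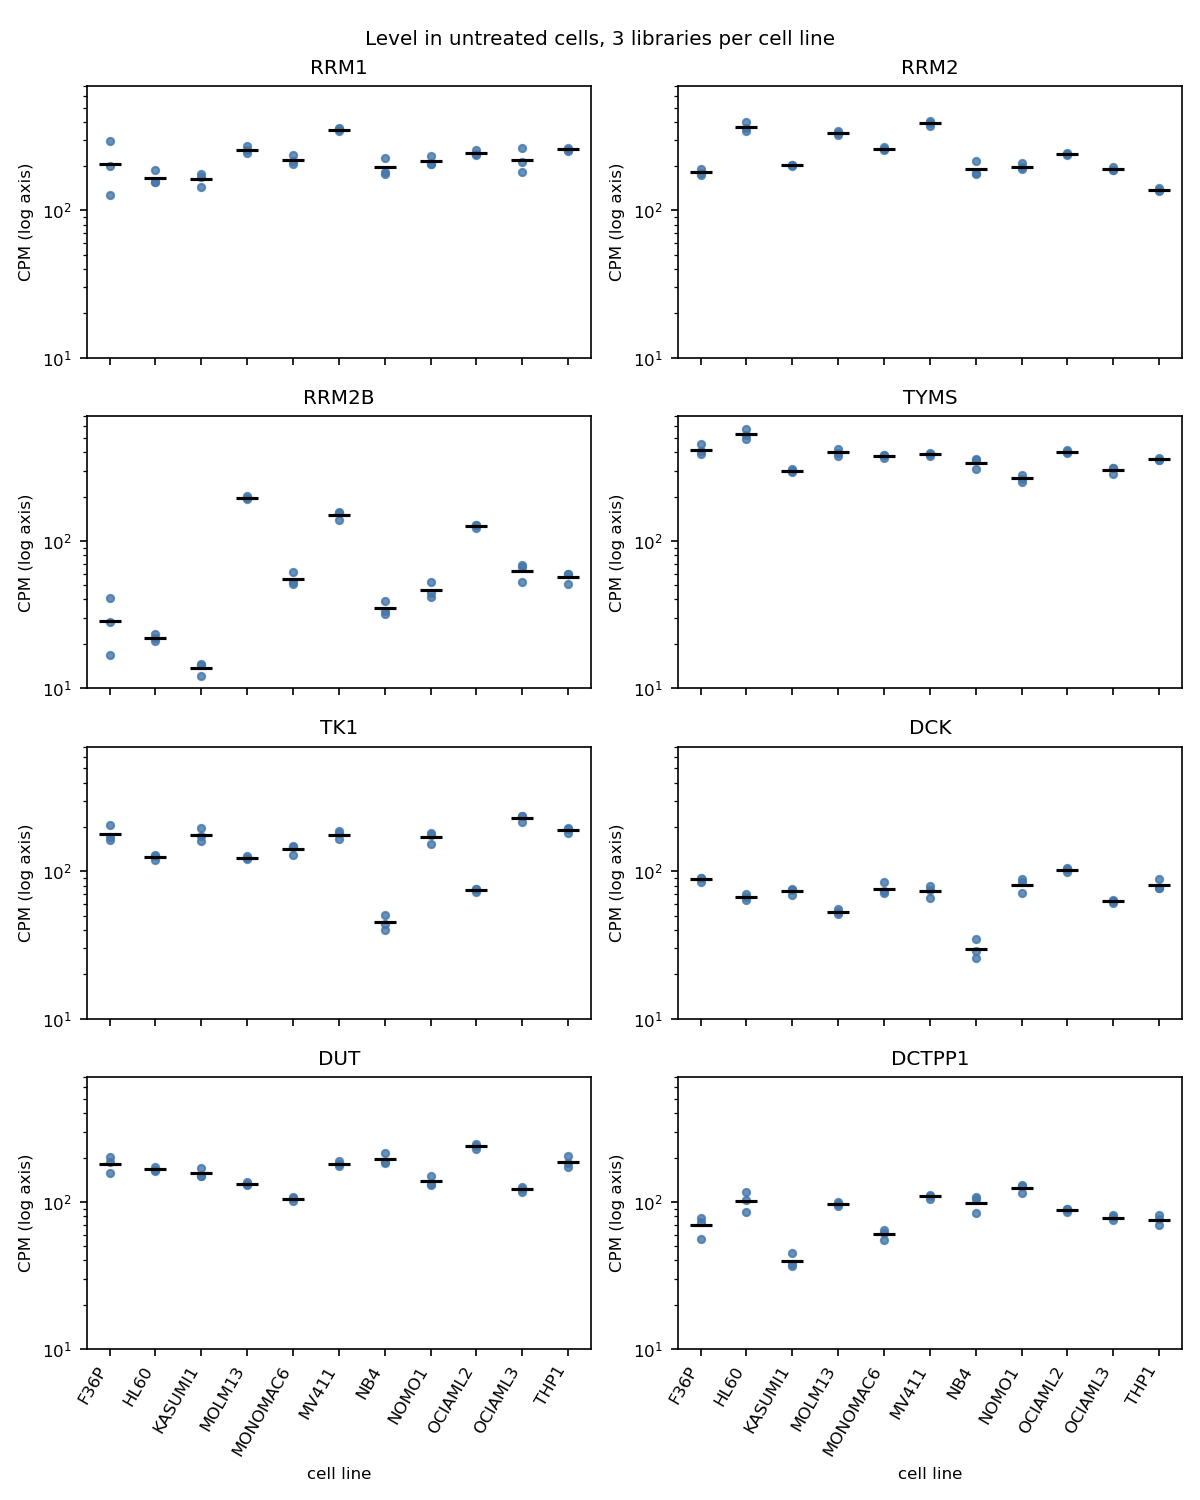
Level of each gene in untreated cells, in CPM on a log axis, against the cell line. Points are the 3 libraries of a line and black bars their mean. RRM2B spreads 14.3-fold between MOLM13 and KASUMI1, whereas RRM1 stays within 2.17-fold and RRM2 within 2.83-fold.

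All 8 members differed between the 11 untreated lines (edgeR quasi-likelihood F test, 33 libraries, largest adjusted p 1.49e-06 for RRM1), which 99.4% of all genes tested also did. Per kilobase of the main (MANE) transcript, the median level over lines was highest for TYMS at 234 CPM per kilobase, followed by TK1 at 120, DUT at 77.8, DCTPP1 at 74.8, RRM1 at 70.0, RRM2 at 62.2 and DCK at 29.2, with RRM2B lowest at 11.5. Across the 11 lines the basal levels of RRM1 and RRM2B were alike in order (Pearson r = 0.873, Spearman rho = 0.90, n = 11 lines), more so than those of RRM1 and RRM2 (r = 0.263, rho = 0.182). RRM1 and RRM2B also shared the deviations of single libraries from their group. In untreated F36P, RRM1 stood at 128, 216 and 324 CPM and RRM2B at 17.1, 30.3 and 44.8 CPM in libraries 1, 2 and 3, in the same order, while RRM2 stood at 194, 192 and 190 CPM. Over all 66 libraries these deviations had r = 0.898 between RRM1 and RRM2B and r = 0.279 between RRM1 and RRM2. Deviations within a group sum to 0 and are not independent. Over the same libraries, the RRM1 deviation had r = 0.534 with a library's tendency to deviate more in longer genes (the Spearman correlation, over genes, of deviation with length). What part this shared spread has in the likeness of the basal levels was not tested. The genes whose basal level was most like that of RRM2B over the 11 lines were TMEM192 (r = 0.926), VDAC3 (r = 0.924) and TRIM22 (r = 0.921), and for RRM2 they were LDAH (r = 0.925), TBX6 (r = 0.922) and EXOC2 (r = 0.864), out of 18129 genes.

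After etoposide, the members did not move as one block. Over the 10 lines without OCIAML2, 34 of the 80 member-by-line tests rose and 18 fell at an adjusted p under 0.05 (edgeR's quasi-likelihood test within each line), and 28 did not pass. Of all tests of all genes in these lines, 27.7% rose and 24.4% fell. With a fold above 2, as the study set for its calls, 9 member-by-line tests rose and 3 fell, against 11.1% and 3.96% of all tests. RRM2B rose in 8 of 10 lines, RRM2 and TK1 in 7, RRM1 and TYMS in 4, DUT in 3 and DCK in 1. DCTPP1 fell in 7 lines, DCK and DUT in 3, RRM2 in 2, and RRM1, TYMS and TK1 in 1 each, MOLM13. In bulk RNA such as this, fewer cells in S phase and less mRNA per cell cannot be told apart.

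**Figure D2:**
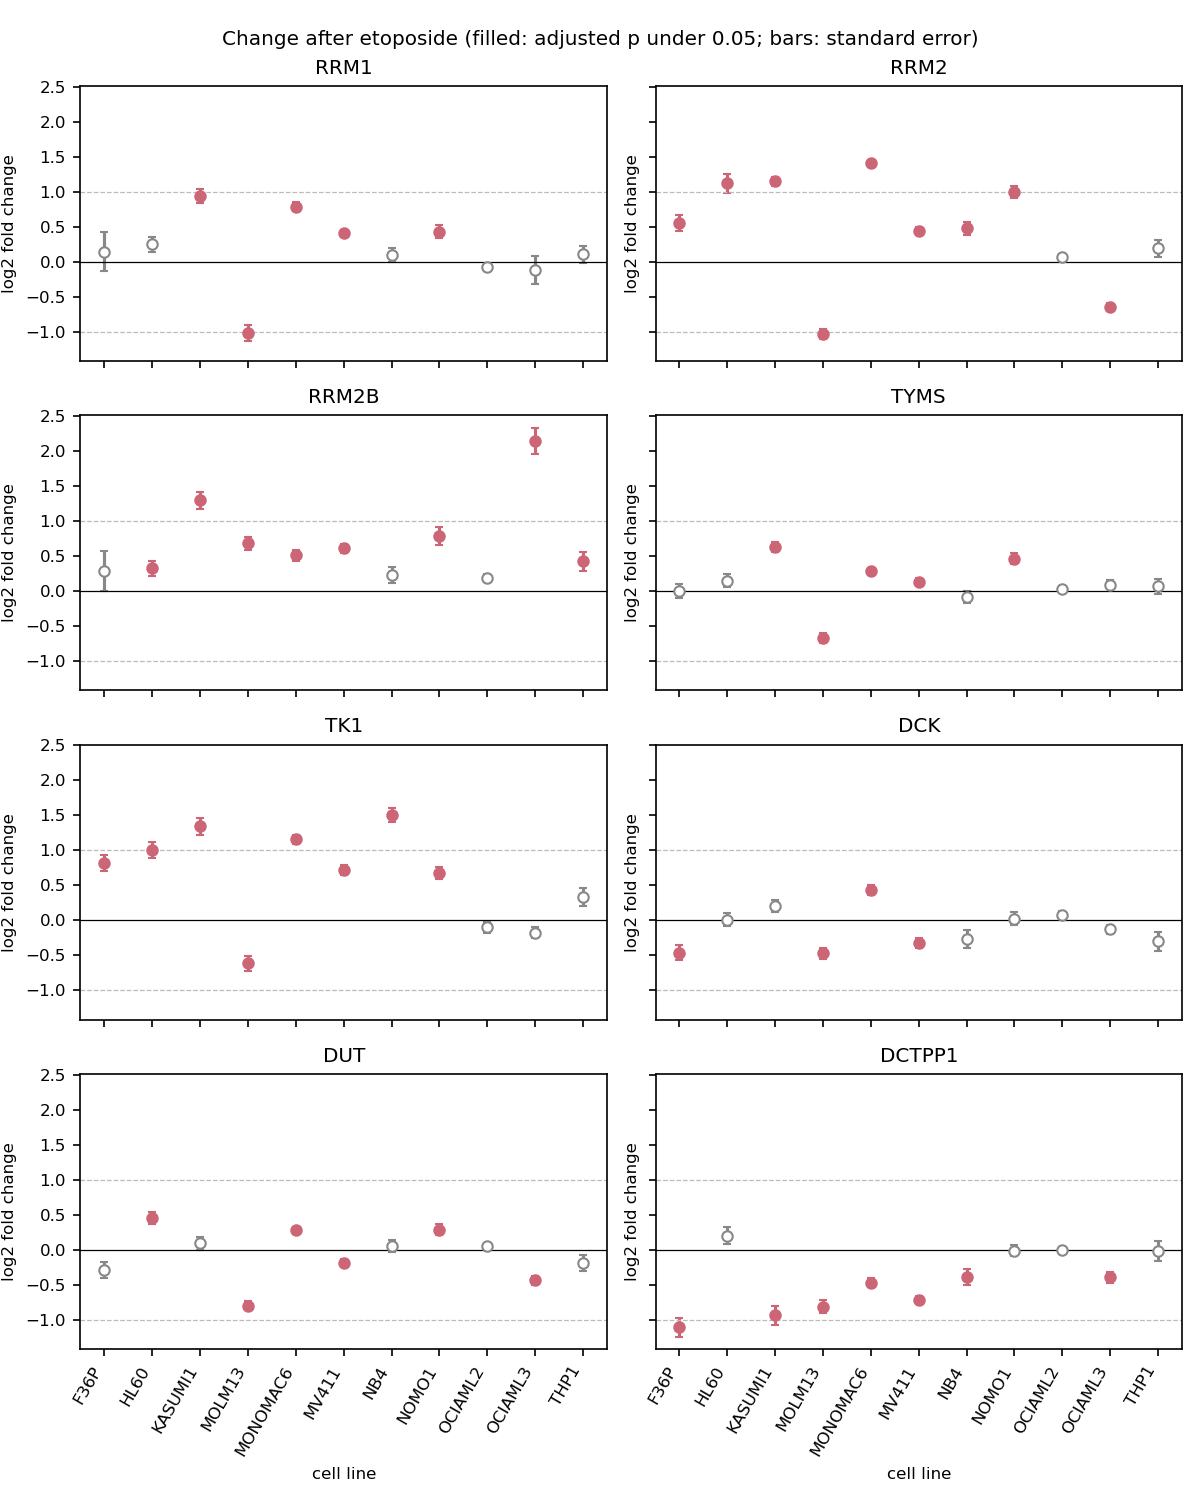
Change of each gene after 24 h of etoposide in each cell line, as log2 fold change with its standard error. Filled points passed an adjusted p of 0.05 and dashed lines mark 2-fold. RRM2B lies above 0 in every line, DCTPP1 mostly below, and MOLM13 is the low point of RRM1, RRM2, TYMS, TK1, DCK and DUT.

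The S phase small subunit RRM2 rose in F36P, HL60, KASUMI1, MONOMAC6, MV411, NB4 and NOMO1, and fell in MOLM13 and OCIAML3. Its largest rise was in MONOMAC6, where the untreated libraries held 280, 273 and 267 CPM and the etoposide libraries 756, 697 and 715 CPM, a 2.64-fold increase (log2 fold change 1.40 ± 0.04 SE, adjusted p = 5.93e-10). KASUMI1 went from 203, 202 and 202 CPM to 447, 453 and 444 CPM (2.21-fold). HL60 went from 428, 372 and 387 CPM to 792, 692 and 1097 CPM (2.17-fold), the third etoposide library lying well above the other 2. In all 3 lines every etoposide library was above every untreated one.

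The increase in NOMO1, from 222 to 443 CPM, fell just short of the study's limit of 2-fold, and those in F36P, NB4 and MV411 were 1.47-fold, 1.39-fold and 1.35-fold. RRM2 fell in MOLM13 from 315, 321 and 334 CPM to 151, 173 and 149 CPM (log2 fold change -1.04 ± 0.07 SE, adjusted p = 3.33e-06). In OCIAML3 it fell from 191, 196 and 193 CPM to 126, 125 and 118 CPM (log2 fold change -0.65 ± 0.06 SE, adjusted p = 8.77e-05). The groups did not overlap in either line, and both falls passed without each library in turn. THP1 had a log2 fold change of 0.19 that did not pass (adjusted p = 0.242).

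RRM2B, the p53-induced small subunit, had a positive log2 fold change in all 10 lines, and 8 passed. The rise was largest in OCIAML3, from 67.1, 51.9 and 70.3 CPM to 320, 315 and 202 CPM, or 4.42-fold (log2 fold change 2.14 ± 0.19 SE, adjusted p = 7.39e-05). Library 3 after etoposide was the low one, and RRM1 was also lowest there, at 144 CPM against 216 and 254 CPM. KASUMI1, the line with the lowest basal level, went from 14.5, 14.3 and 12.1 CPM to 35.0, 29.1 and 36.5 CPM (2.46-fold, adjusted p = 1.57e-05). MOLM13, the line with the highest, went from 185, 187 and 192 CPM to 340, 261 and 302 CPM (1.60-fold, adjusted p = 0.000146).

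RRM2B rose 1.73-fold in NOMO1, 1.52-fold in MV411 and 1.42-fold in MONOMAC6. The rises in THP1 (1.34-fold, adjusted p = 0.0283) and HL60 (1.25-fold, adjusted p = 0.0359) each no longer passed when any 1 of 4 single libraries was left out, with adjusted p up to 0.123 and 0.154. In F36P the log2 fold change of 0.29 did not pass and lay between -0.04 and 0.57 as single libraries were left out, the widest range among RRM2B's lines. In NB4 the log2 fold change of 0.22 did not pass (adjusted p = 0.111). Libraries of the same number in NB4 deviated together, and with the replicate number as a block RRM2B passed there at 0.22 (adjusted p = 0.0153).

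**Figure D3:**
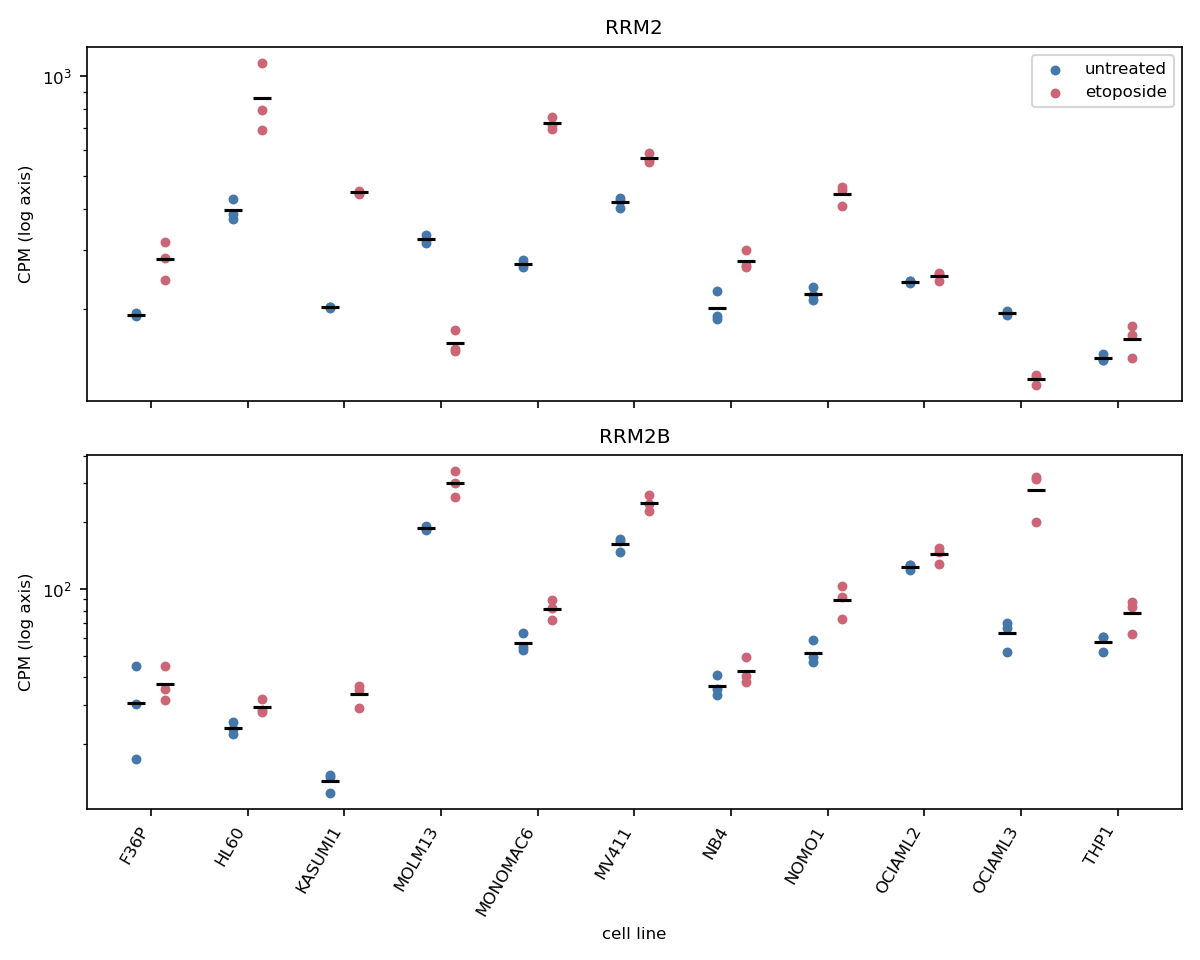
RRM2 and RRM2B in every library, in CPM on a log axis, with untreated libraries in blue and etoposide libraries in red for each cell line and black bars for the mean of 3 libraries. In OCIAML3 and MOLM13 the red points lie below the blue ones for RRM2 and above them for RRM2B, and in MONOMAC6 both move up, RRM2 2.64-fold and RRM2B 1.42-fold.

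RRM1, the subunit that both small subunits need, rose in 4 lines and fell in 1. It rose in KASUMI1 from 163 CPM ± 18.2 to 312 CPM ± 21.2 (log2 fold change 0.94 ± 0.10 SE), in MONOMAC6 from 229 CPM ± 15.6 to 395 CPM ± 28.0, in NOMO1 by 0.43 and in MV411 by 0.40 on the log2 scale. In MOLM13 it fell from 246, 238 and 262 CPM to 142, 100 and 125 CPM (log2 fold change -1.02 ± 0.11 SE, adjusted p = 3.83e-05), nearly the same size as the fall of RRM2. The other 5 lines did not pass. In OCIAML3, where RRM2B rose and RRM2 fell, RRM1 had a log2 fold change of -0.12 ± 0.21 SE. Over the 10 lines the log2 fold changes of RRM1 had r = 0.89 with those of RRM2 and r = -0.0075 with those of RRM2B. Each pair shares its libraries, and these are descriptions over 10 points.

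The balance between the alternative small subunits was measured in each library as the log2 ratio of RRM2B to RRM2, each as reads per kilobase of its merged exons. Untreated cells ranged from -3.30 ± 0.06 (SD, n = 3) in HL60 and -3.13 ± 0.15 in KASUMI1 to -0.17 ± 0.05 in OCIAML2 and -0.02 ± 0.01 in MOLM13, so RRM2B made between 0.102 and 0.987 reads per kilobase for each of RRM2. After etoposide the ratio rose to 1.69 ± 0.30 in MOLM13 (from -0.0075, -0.02 and -0.03 to 1.93, 1.36 and 1.79) and to 1.91 ± 0.33 in OCIAML3 (from -0.74, -1.16 and -0.70 to 2.10, 2.10 and 1.54). These are changes of 3.28-fold and 6.86-fold, with no overlap of the groups. By this measure of mRNA, RRM2B then stood at 3.23 and 3.76 times RRM2, and the subunit proteins were not measured. No other of the 10 lines had a mean ratio above 0 on the log2 scale after etoposide. The level of the ratio depends on the length taken: with the MANE transcripts every ratio was 2.49-fold lower, which left 1.30 in MOLM13 and 1.51 in OCIAML3 after etoposide. Changes do not depend on it.

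Elsewhere the ratio fell or moved little. It fell from -1.50 ± 0.11 to -2.39 ± 0.09 in MONOMAC6, from -3.30 ± 0.06 to -4.08 ± 0.36 in HL60 and from -1.70 ± 0.03 to -1.95 ± 0.11 in NB4, with groups that did not overlap. The ratio was higher by 0.22 in THP1 and by 0.17 in MV411, also without overlap. In F36P, KASUMI1 and NOMO1 the libraries overlapped. With 3 libraries against 3, the exact two-sided permutation test cannot go below p = 0.1, which is the value in each of the 7 lines whose groups did not overlap. Over the 10 lines the mean change was 0.27 ± 1.13 (SD), positive in 5 lines, and an exact two-sided sign-flip test gave p = 0.514. Without OCIAML3 the mean was -0.0062.

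TYMS, the thymidylate synthase, moved less than RRM2. It rose in KASUMI1 by 0.63 ± 0.07 (log2 fold change ± SE), in NOMO1 by 0.46 ± 0.08, in MONOMAC6 by 0.29 ± 0.04 and in MV411 by 0.13 ± 0.05, the last of which no longer passed without any 1 of 3 single libraries. In MOLM13 it fell by 0.68 on the log2 scale, from 383 CPM ± 22.1 to 240 CPM ± 12 (adjusted p = 2.53e-05). The exons of TYMS share 967 bases with ENOSF1 and 193 with TYMSOS on the opposite strand, whose reads the stranded counts keep apart. ENOSF1 was nearly silent in untreated F36P, at 2 to 5 reads per library and 38 to 48 after etoposide, whereas it lay between 26.4 and 178 CPM in the other untreated lines. TYMS in untreated F36P stood at 441 CPM ± 16.7. ENOSF1 fell in KASUMI1, MOLM13, MONOMAC6, MV411 and NOMO1, of which TYMS rose in all but MOLM13.

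TK1, the S phase thymidine kinase, rose in 7 lines, 4 of them above 2-fold. In NB4, the line with the lowest basal level, it went from 46.1, 53.2 and 42.6 CPM to 121, 144 and 139 CPM (2.84-fold, log2 fold change 1.51 ± 0.10 SE, adjusted p = 1.67e-08). KASUMI1 went from 161, 175 and 195 CPM to 383, 524 and 444 CPM (2.54-fold), MONOMAC6 from 134, 154 and 153 CPM to 311, 351 and 324 CPM (2.23-fold) and HL60 from 139, 128 and 136 CPM to 217, 281 and 309 CPM, just above 2-fold. Every etoposide library of these 4 lines was above every untreated one. F36P, MV411 and NOMO1 rose 1.77-fold, 1.65-fold and 1.60-fold. MOLM13 fell from 117, 118 and 122 CPM to 64.9, 90.8 and 77.4 CPM (log2 fold change -0.61 ± 0.11 SE, adjusted p = 0.000798), and OCIAML3 and THP1 did not pass at -0.18 and 0.34 (adjusted p = 0.104 and 0.0581). TK1 in THP1 passed under 6 of 8 other settings, with DESeq2 for example (adjusted p = 0.0374).

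DCK, the deoxycytidine kinase, fell in MOLM13 from 51.2 CPM ± 1.72 to 36.9 CPM ± 3.16, in F36P from 93.6 CPM ± 4.58 to 67.9 CPM ± 4.10 and in MV411 from 78.3 CPM ± 7.42 to 62.5 CPM ± 4.84. With libraries scaled by their size alone, DCK in F36P was -0.21 on the log2 scale and did not pass (adjusted p = 0.137). It rose in MONOMAC6 alone, from 79.5 CPM ± 7.72 to 107 CPM ± 5.93 (log2 fold change 0.43 ± 0.07 SE, adjusted p = 0.000221). NB4, already the lowest, had a log2 fold change of -0.26 that passed with the replicate number as a block (adjusted p = 0.0101) and did not without it (adjusted p = 0.0889). DCK shares 199 exon bases with MOB1B on the same strand, where reads were counted for neither gene. MOB1B rose in MV411 and OCIAML3, by 0.24 and 0.28 on the log2 scale, and did not pass in the other 8 lines.

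The dUTPase gene DUT rose in HL60 by 0.45, in NOMO1 by 0.29 and in MONOMAC6 by 0.27 on the log2 scale, the value in NOMO1 not passing without either of 2 untreated libraries (adjusted p up to 0.0558). It fell in MOLM13 from 128 CPM ± 2.12 to 73.3 CPM ± 2.10 (log2 fold change -0.80 ± 0.06 SE), in OCIAML3 from 123 CPM ± 3.35 to 90.6 CPM ± 3.31 and in MV411 from 193 CPM ± 6.56 to 170 CPM ± 6.30. DUT in MV411 did not pass with library size alone (log2 fold change -0.058, adjusted p = 0.368) or in 1 fit of all 60 libraries (-0.14, adjusted p = 0.167). DCTPP1, the dCTP pyrophosphatase, was the member that fell most widely. In F36P it fell from 79.2, 78.5 and 61.7 CPM to 31.6, 36 and 34.1 CPM (log2 fold change -1.11 ± 0.14 SE, adjusted p = 7.36e-05). In KASUMI1 it fell from 36.7, 37.7 and 44.7 CPM to 17.6, 24.8 and 19.7 CPM (log2 fold change -0.94 ± 0.14 SE, adjusted p = 0.000274). The etoposide libraries lay below all untreated ones in both lines. DCTPP1 also fell in MOLM13, MV411, MONOMAC6, OCIAML3 and NB4, with log2 fold changes between -0.82 and -0.40, and did not pass in HL60 (0.20), NOMO1 (-0.01) and THP1 (-0.01). DCTPP1 in NB4 did not pass with library size alone (-0.19, adjusted p = 0.160).

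Taking each line as 1 value, RRM2B, TK1 and DCTPP1 shifted on average. The mean log2 fold change over the 10 lines was 0.73 ± 0.59 (SD) for RRM2B (limma, adjusted p = 0.00439), 0.68 ± 0.67 for TK1 (adjusted p = 0.0118) and -0.47 ± 0.43 for DCTPP1 (adjusted p = 0.0108). RRM2B was positive in 10 of 10 lines, TK1 in 8 and DCTPP1 negative in 9. Of all 10588 genes tested this way, 18.8% were higher and 26.1% lower on average. Exact two-sided sign-flip tests gave p = 0.00195 for RRM2B, the smallest they can give with 10 lines, 0.0156 for TK1 and 0.00977 for DCTPP1. The mean of RRM2 was 0.46 ± 0.79 (adjusted p = 0.104) and that of RRM1 0.20 ± 0.54 (adjusted p = 0.308). Both passed without MOLM13, at 0.63 (adjusted p = 0.0183) and 0.34 (adjusted p = 0.0297), and RRM2 also without OCIAML3, at 0.59 (adjusted p = 0.0450). TYMS, DCK and DUT had means of 0.11, -0.13 and -0.08 that did not pass.

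The lines differed in their response. All 8 members differed between the 10 lines in their etoposide change (edgeR quasi-likelihood F test of the line by treatment interaction, 60 libraries), as did 74.5% of all genes. RRM2 gave F = 61.8 (adjusted p = 2.86e-22) and DCK the smallest, F = 7.56 (adjusted p = 1.77e-06). In MOLM13, 7 members fell and RRM2B alone rose, with 28.1% of all genes rising and 28.1% falling in this line. In MONOMAC6, 7 rose and DCTPP1 alone fell, where 31.8% of all genes rose and 30.5% fell. RRM2B rose and DCTPP1 fell in both lines. NOMO1 had 6 members higher (28.8% of all genes rose), and KASUMI1 had 5 higher and DCTPP1 lower (31.5% rose and 28.6% fell). In OCIAML3, RRM2B rose while RRM2, DUT and DCTPP1 fell, where 22.4% of all genes rose and 17.7% fell. THP1 had a single member that passed, RRM2B, with TK1 close to the threshold. Among all genes in THP1, 16.1% rose and 16.0% fell.

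The study's libraries of etoposide-treated OCIAML2 showed little response. None of the 8 members passed (edgeR's quasi-likelihood test, adjusted p = 0.998 for each), 1 of 8, RRM2B, had an unadjusted p under 0.05, and DESeq2 and edgeR's exact test gave the same counts. Without etoposide library 3, 1 member passed and 3 had an unadjusted p under 0.05 (DCK, RRM2B and TK1), and without both libraries numbered 3, 1 passed. In this line 0.0221% of all genes passed, 3 in number and all on the list of p53 targets used below: CDKN1A and MDM2, which rose by 0.73 and 0.47 on the log2 scale, and ZMAT3. RRM2B went from 123, 128 and 128 CPM to 147, 154 and 130 CPM (log2 fold change 0.19 ± 0.06 SE).

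The S phase genes of the same lines give the members a setting. From a list of 20 genes of S phase and replication that holds no member, 20 fell in MOLM13 (median log2 fold change -1.02) and 17 fell and 1 rose in OCIAML3 (median -0.44), the lines where RRM2 fell. In HL60 and MONOMAC6, 14 rose and 1 fell, and in NOMO1 13 rose and 1 fell (medians 0.43, 0.32 and 0.27). Of all genes, 28.1% fell in MOLM13 and 17.7% in OCIAML3, and 17.5% rose in HL60, 31.8% in MONOMAC6 and 28.8% in NOMO1. The list and RRM2 did not move the same way in every line. In F36P, MV411 and NB4 the list medians were negative, at -0.28, -0.23 and -0.12, although RRM2 rose in these lines. The median was 0.17 in KASUMI1, where RRM2 rose, and 0.12 in THP1, where RRM2 did not pass. Over the 10 lines, 68 of the 200 gene-by-line tests rose and 71 fell, where 27.7% and 24.4% of all tests did. CDC6, which loads the replicative helicase, rose in 8 lines and fell in 2, CCNE2 (cyclin E2) rose in 7 and CDT1 in 6, whereas CCNA2 (cyclin A2) fell in 7. Of 12 genes of G2 and mitosis, 60 of 120 tests fell and 19 rose, beside the same shares of all tests, CDC20 and PLK1 each falling in 9 lines and CCNB1 and BUB1 in 8. The list median of S phase genes had r = 0.948 with DUT, 0.901 with RRM2, 0.826 with RRM1, 0.804 with TYMS, 0.726 with TK1, 0.707 with DCK and 0.55 with DCTPP1 over the 10 lines, against -0.231 with RRM2B. The median of the G2 and mitosis genes gave r = 0.914 with RRM1, 0.88 with TYMS, 0.824 with TK1, 0.812 with DUT, 0.811 with RRM2 and 0.805 with DCK, against 0.175 with DCTPP1 and 0.126 with RRM2B. In the same order of genes, Spearman rho was 0.952, 0.83, 0.721, 0.721, 0.552, 0.782, 0.552 and -0.176 for the S phase list. For the G2 and mitosis list it was 0.709, 0.697, 0.818, 0.77, 0.794, 0.855, 0.188 and 0.0303. MOLM13 had the lowest median of both lists, and the points share their libraries.

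p53 target genes showed another order of lines. Of 20 such genes, 128 of 183 gene-by-line tests rose and 15 fell, where 27.7% and 24.4% of all tests did. Their median log2 fold change was 0.77, where the median of all genes lay between -0.03 and 0.09 in each line. OCIAML3 had the highest list median at 2.06, with 20 of 20 genes higher, and MOLM13 followed at 1.28, with 18 of 19 tested genes higher. Of all genes, 22.4% rose in OCIAML3 and 28.1% in MOLM13. HL60 and NB4 were lowest at 0.27 and 0.25. The list median had r = 0.811 and rho = 0.745 with RRM2B, -0.672 and -0.37 with RRM2 and -0.739 and -0.709 with TK1. The points share their libraries, and the list was chosen with earlier results of these data known.

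CDKN1A, the p21 inhibitor of cyclin-dependent kinases, rose in all 10 lines. Its log2 fold change was 5.46 in OCIAML3, 4.14 in both F36P and HL60, 3.78 in NB4, 3.04 in both MOLM13 and NOMO1, 2.86 in MONOMAC6, 2.57 in KASUMI1, 2.42 in THP1 and 1.86 in MV411. In HL60 it stayed low, at 0.230 CPM ± 0.05 before and 4.16 CPM ± 1.33 after etoposide, whereas it reached 1941 CPM ± 247 in MOLM13 and 1629 CPM ± 176 in OCIAML3. MDM2, the ubiquitin ligase of p53, rose in fewer lines: by 2.59 in OCIAML3, 1.84 in MOLM13, 1.11 in MV411, 0.65 in NOMO1 and 0.61 in MONOMAC6 on the log2 scale. It fell by 0.33 in NB4 and did not pass in F36P (-0.22), HL60 (0.14), KASUMI1 (-0.02) and THP1 (0.03). KASUMI1 therefore had the second largest rise of RRM2B, at 1.30, with no change of MDM2 that passed. Over the 10 lines the change of RRM2B had r = 0.701 and rho = 0.697 with that of MDM2, and r = 0.399 and rho = -0.115 with that of CDKN1A. BTG2, an antiproliferative p53 target, rose in 10 lines, and the death receptor FAS and GADD45A in 9, GADD45A falling in the remaining line.

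The genes whose etoposide changes were most like those of RRM2B over the 10 lines, among 10587 genes, were FBXO22 (r = 0.940), CCNG1 (r = 0.901), RAB11A (r = 0.90), TSPYL1 (r = 0.893) and POLH (r = 0.874). CCNG1 (cyclin G1) belongs to the p53 list, though it rose in 2 lines and fell in 2 (mean log2 fold change 0.05, limma, adjusted p = 0.742). POLH encodes the translesion polymerase eta. For RRM2 they were PAQR4 (r = 0.978), CDCA4 (r = 0.973), ZNF672 (r = 0.970), RAD54L (r = 0.968) and GPR137 (r = 0.966). RAD54L acts in homologous recombination. Among the members themselves, RRM2 was most like DUT (r = 0.918), RRM1 (r = 0.89) and TK1 (r = 0.867), and its r with RRM2B was -0.362. Without MOLM13, the low point of most members, the values were 0.851, 0.798, 0.758 and -0.512.

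Of 22 further genes of deoxynucleotide supply (nucleotide kinases, phosphatases, transport and one-carbon metabolism), 61 of 217 gene-by-line tests rose and 69 fell, where 27.7% and 24.4% of the tests of all genes did, with a median log2 fold change of -0.02. On average over the lines, 4 of 21 genes were higher and 6 lower, again near the 18.8% and 26.1% of all genes. NME2, a nucleoside diphosphate kinase, fell in 8 lines (mean log2 fold change -1.09, adjusted p = 6.26e-05). TYMP, the phosphorylase that degrades thymidine, rose in 8 lines (mean 1.06, adjusted p = 0.00035) and CMPK2, the mitochondrial UMP/CMP kinase, in 8 (mean 0.89, adjusted p = 0.0022).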

How the data were processed

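RNA of untreated and etoposide-treated AML cell lines was sequenced from stranded poly(A) libraries. Per the labels, the authors' processing used FastQC 0.11.5, STAR 2.5.3a, GRCh38.p7 and edgeR 3.20.1. STAR and GENCODE 25 gave the authors the deposited counts, which are raw reads per gene on the library's strand. The members and gene lists were chosen with earlier results of these data known. Gene names and exon lengths came from GENCODE 44, which gave 56948 of 57992 identifiers a position. In each line, edgeR 4.0.16 (R 4.3.3) fitted the quasi-likelihood test to counts scaled by TMM, after filterByExpr (minimum count 10, total 15), with Benjamini-Hochberg adjustment over all genes of the line. CPM are on TMM library sizes, set within a line for etoposide changes and, for basal levels, over 33 libraries without drug. Means over lines were tested by limma 3.58.1, and DESeq2 1.42.0 was an alternative. The RRM2B to RRM2 ratio used an offset of 0.5 counts. Fits were tested on simulated data. Replicates differed beyond sampling noise in all 66 pairs (lowest chi-square per degree of freedom 2.05). A read count carries counting error besides the spread between libraries, and even the lowest member, RRM2B in KASUMI1, stood at 12.1 CPM or more.

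Same-numbered libraries deviated together most clearly in NB4 (lowest of 3 correlations 0.152), a check from the data, not the labels. In HL60, MOLM13, MONOMAC6, MV411 and OCIAML2 all 3 correlations were also positive, the lowest of each line lying between 0.00248 and 0.0892. Named genes were all members in every line. Of each further list, up to 4 genes that passed one way in the most lines were named, and besides these CDKN1A, MDM2, genes overlapping a member and the genes most like RRM2 and RRM2B. A gene that this rule names is not reported here. Alternatives were other normalizations, filters, tools, a replicate block, 1 fit of all lines and left-out libraries or lines.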

Additional observations from a re-analysis of the deposited data

Results flagged for a closer look

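The etoposide change of every member differed between the 10 cell lines by the interaction test itself. The F values were 61.8 for RRM2, 31.3 for TK1, 21.1 for DUT, 20.7 for TYMS, 11.8 for DCTPP1, 11.2 for RRM2B, 9.91 for RRM1 and 7.56 for DCK. Of all genes, 74.5% passed the same test.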

How the results depend on the processing

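Of 865 values under alternatives for the 30 main results, 853 were kept. For tests this meant the same side of the threshold and, except for F values, which have no direction, the same direction. For counts it meant a count close to the main one. Many of the 865 left out 1 library of 1 line from a mean over lines, which changes 1 of its 10 values. With a minimum of 5 CPM, 0 member-by-line tests were lower by over 2-fold and passed (edgeR's quasi-likelihood test), since the 3 log2 fold changes became -0.95 to -0.99 with adjusted p up to 0.000464. In 1 fit of 60 libraries 1 remained. With no fold minimum, 34 were higher and 18 lower. The mean of DUT turned to 0.033 with library size alone and to 0.0045 without MOLM13. Without MOLM13, RRM1 (0.34) and RRM2 (0.63) passed, and RRM2 did without OCIAML3 (0.59). The mean change of the RRM2B to RRM2 ratio turned to -0.0062 without OCIAML3. The median untreated log2 ratio was -2.48 with the longest and -2.66 with the MANE transcript, the latter chosen after seeing the data.

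Values that changed sign had not passed. With RLE and with DESeq2, TYMS in F36P was -0.051, DCK in NOMO1 -0.015 and DCTPP1 in THP1 0.0014. With library size alone, TYMS in NB4 was 0.12, DCTPP1 in NOMO1 0.045 and DCTPP1 in THP1 0.043. Without a filter, TYMS in F36P was -0.11. In 1 fit of 60 libraries, DCK in NOMO1 was -0.0066 and DCTPP1 in THP1 0.025. Leaving out libraries gave -0.17 to 0.72 for RRM2B in F36P, -0.25 to 0.62 for RRM1 in F36P, -0.13 to 0.043 for TYMS in F36P, -0.033 to 0.066 for DCK in HL60, -0.030 to 0.17 for DUT in KASUMI1, -0.00038 to 0.12 for DUT in NB4, -0.075 to 0.083 for DCK in NOMO1, -0.14 to 0.057 for DCTPP1 in NOMO1, -0.046 to 0.024 for DCTPP1 in OCIAML2, -0.44 to 0.21 for RRM1 in OCIAML3, -0.0098 to 0.13 for TYMS in OCIAML3 and -0.16 to 0.10 for DCTPP1 in THP1. Of 52 member-by-line tests that passed, 48 did so without each library in turn. The replicate block gave a call to RRM2B (0.22) and DCK (-0.26) in NB4 and no other. Library size alone put the median log2 fold change of all genes at 0.34 in F36P, where it was 0.09, and at 0.21 in NB4, where it was 0.0084. Calls lost were DCK in F36P, DUT in MV411 and DCTPP1 in NB4 with library size alone, RRM2B in HL60 (adjusted p = 0.0624) without a filter, and RRM2B in HL60 (adjusted p = 0.162) and DUT in MV411 in 1 fit of 60 libraries.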
